A study of Mus musculus with 10 samples.

Results

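The small leucine-rich proteoglycans are secreted proteins of the extracellular matrix, and chromatin accessibility at 10 of their genes, decorin (Dcn) among them, was followed in fat cells given forskolin or rosiglitazone. The genes were Dcn, Bgn, Aspn, Lum, Kera, Fmod, Prelp, Omd, Epyc and Ogn. A peak was taken as theirs when its centre lay inside the annotated bounds of one of them, or outside every protein-coding gene with one of them as the nearest gene end within 50 kb. This rule found 76 of the 122984 peaks of the study, 33 inside the genes and 43 outside them. The peaks were themselves selected by read counts in these libraries, since the authors called them there, so that a gene has open chromatin is no result here. The gene family was proposed with earlier results of these data known, and the calls below are therefore descriptions set beside the share of all peaks or genes that passed the same test.

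ATAC-seq, in which a transposase cuts and tags open DNA, was run on adipocytes made from MAP cells, an immortalized line of mouse adipocyte progenitors. All 5 groups of 2 libraries went through the same differentiation: confluent cells received insulin, isobutylmethylxanthine (500 µM), dexamethasone (1 µM) and rosiglitazone (1 µM) for 2 days, followed by 2 more days of insulin with rosiglitazone. The differentiated cells, at day 7 to 8, were left with vehicle (libraries S1 and S2), given forskolin, which activates adenylyl cyclase and raises cAMP, for 4 hours (S3, S4), 1 day (S5, S6) or 3 days (S7, S8), or given rosiglitazone, an agonist of the nuclear receptor PPARγ, for 3 days (S9, S10). The controls had thus also met rosiglitazone, and the doses used after differentiation are not given in the sources used here. The labels state the aim of both treatments as browning, the gain of heat-producing features by white-type adipocytes. The cells come from a single line. Nothing in the labels says that paired libraries were grown apart, so the tests measure only the spread between these libraries, which may be technical.

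As background, each of these proteins has a core of leucine-rich repeats that lies along collagen fibrils and sets their width and spacing, and several bind growth factors such as TGF-beta. Decorin, biglycan (Bgn) and asporin (Aspn) form class I, of which decorin and biglycan carry chondroitin or dermatan sulfate chains. Lumican (Lum), keratocan (Kera), fibromodulin (Fmod), Prelp and osteomodulin (Omd) form class II, and epiphycan (Epyc) and osteoglycin (Ogn) form class III. In adipose tissue decorin and lumican are made mainly by progenitors and fibroblasts. The genes lie in a few clusters: Dcn, Lum, Kera and Epyc within 202 kb of chromosome 10 (29 peaks), Prelp and Fmod within 138 kb of chromosome 1 (25 peaks), and Aspn, Omd and Ogn within 80.1 kb of chromosome 13 (11 peaks). Bgn stands alone on the X chromosome (11 peaks). All 11 peaks on chromosome 13 also lie inside the long gene Cenpp, which codes for a centromere protein, and cannot be told apart from it.

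Promoter sequence from RefSeq (GRCm38.p6) was at hand for 8 of the 10 genes. The windows of Prelp, Bgn and Fmod are shown because a peak that differed from control overlapped each of them or the bases just after the start. Each run gives the 250 bases before the transcription start, 5′ to 3′ along the gene, and capitals mark matches to the motifs searched.
Prelp: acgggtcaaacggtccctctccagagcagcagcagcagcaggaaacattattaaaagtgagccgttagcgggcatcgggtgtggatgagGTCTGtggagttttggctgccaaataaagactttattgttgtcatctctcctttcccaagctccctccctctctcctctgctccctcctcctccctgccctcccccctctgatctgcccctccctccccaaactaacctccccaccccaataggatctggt
Bgn: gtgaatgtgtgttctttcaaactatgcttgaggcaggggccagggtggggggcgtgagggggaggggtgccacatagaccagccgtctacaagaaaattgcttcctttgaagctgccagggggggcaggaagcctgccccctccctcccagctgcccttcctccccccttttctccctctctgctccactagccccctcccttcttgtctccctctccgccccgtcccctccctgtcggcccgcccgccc
Fmod: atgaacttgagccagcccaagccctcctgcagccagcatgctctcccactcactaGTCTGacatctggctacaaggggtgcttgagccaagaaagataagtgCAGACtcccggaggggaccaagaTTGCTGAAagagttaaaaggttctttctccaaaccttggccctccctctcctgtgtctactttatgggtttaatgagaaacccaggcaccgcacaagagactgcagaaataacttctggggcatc
The Prelp window is chr1:133921402-133921651 on the minus strand, with 55.6% GC, and lies wholly inside a peak at 133921293 to 133921740. Both lie inside the outer bounds of the gene (133910304 to 133930102). The Prelp window has the following match. Its capitals mark 1 match to CAGAC, the SMAD motif, on the opposite strand. The Bgn window is chrX:73483351-73483600 on the plus strand, with 64.4% GC. A peak at 73483528 to 73483895 covers 73 of its bases, and no searched motif is in it. The Fmod window is chr1:134037004-134037253 on the plus strand, with 51.2% GC, and the peak at 134037278 to 134037474 begins just after it. Its 3 matches are 2 to CAGAC and 1 to TTNNGCAA, the C/EBP motif. The motifs searched on both strands, with the share of 21262 protein-coding promoter windows that hold each, were the cAMP response element TGACGTCA (1.92%), its core TGACG (20.2%, which the longer element contains), the AP-1 motif TGANTCA (6.13%) and the C/EBP motif TTNNGCAA (9.09%). The others were the nuclear receptor motif AGGTCA (12.8%), the TEAD motif GGAATG (11.7%), the SMAD motif CAGAC (40.8%) and the promoter box TATAAA (11.6%).

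Total counts ran from 10410233 (S1) to 18935287 (S6) per library, and libraries of a group correlated at r = 0.971 to 0.980 across all peaks. Their counts differed by more than sampling noise in each group (chi-square per degree of freedom 2.22 to 3.37, highest after 3 days of forskolin). Adipocyte markers were accessible in every library: the peaks of all 9 genes, Adipoq and Plin1 among them, summed to between 836 and 1160 CPM (read counts scaled to library size). Those of 11 progenitor or fibroblast markers summed to 768 to 842 CPM. Peaks of 9 of 10 macrophage and immune markers summed to 141 to 183 CPM (Adgre1 had none), of 8 endothelial markers to 229 to 269 CPM, of 8 of 9 bone and cartilage markers to 355 to 475 CPM (Scx had none) and of 6 smooth muscle markers to 131 to 174 CPM. These sums cover unequal widths of peak. Per kb they were 17.9 to 24.9 CPM for adipocyte and 14.3 to 15.6 CPM for progenitor or fibroblast markers. The other sets had 8.12 to 10.5 (macrophage and immune), 8.22 to 9.65 (endothelial), 11.3 to 15.1 (bone and cartilage) and 9.06 to 12.0 CPM per kb (smooth muscle).

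Levels below are CPM after TMM scaling, either of 1 peak or summed over the peaks of a gene, and changes are log2 fold changes with their standard error (SE) from 1 edgeR fit over all 10 libraries. A peak or gene is said to rise or fall where its Benjamini-Hochberg adjusted p, over all 118954 peaks or 17078 genes tested, was below 0.05. Of the 76 peaks, 74 had enough counts to be tested. The remaining pair, inside Dcn and inside Ogn, stayed in the gene sums. The median level of the family's peaks was 2.88 CPM, against 2.72 CPM over all tested peaks, and 47 of 74 (63.5%) differed among the 5 groups in the joint test, against 45.9% of all peaks.

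After 4 hours of forskolin the family divided by locus. On chromosome 10, 9 of 28 peaks rose and 1 fell, whereas on chromosome 1 only 2 of 25 rose and 12 fell. Dcn held 6 of those 9 rises and Prelp 10 of those 12 falls, while none of the 5 Lum peaks was called. On chromosome 13, 1 of 10 rose and 2 fell, and at Bgn none of 11 rose and 4 fell. The 4 falls at Bgn became 1 without S2 or without S4, and 2 without S1 or S3, with DESeq2 or by library size alone. In all, 12 of 74 peaks rose and 19 fell, where 18.5% of all peaks rose and 12.9% fell. The split over the whole family depends on scaling, at 13 up and 13 down when libraries were scaled by size alone, and it was 12 and 12 without S4. The opposite directions on chromosomes 10 and 1 were seen under each scaling tried: by size alone they were 9 up and 1 down against 3 up and 9 down. The median log2 fold change was −0.29 over the family's peaks and 0.00 over all tested peaks.

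The later times showed less of this division. After 1 day 13 of 74 peaks rose and 8 fell (12.9% and 9.84% of all peaks), of which chromosome 10 gave 9 up and 1 down and chromosome 1 gave 3 up and 5 down. The family's split was 17 up and 6 down by library size alone and 12 up and 14 down with offsets that follow the peak level. It was 7 up and 9 down without S1, with 5 up and 1 down on chromosome 10, and 9 up and 5 down without S2 or without S5. After 3 days 9 rose and 7 fell (8.49% and 5.34% of all peaks), with 6 up and 1 down on chromosome 10. Chromosome 1 then gave 3 up and 4 down, which was 3 and 3 by library size alone and 2 and 1 with DESeq2. These 16 calls became 8 without S2 and 9 without S7. Split up and down, they were 10 and 4 by library size alone, 8 and 9 with level-dependent offsets, and 7 and 2 with DESeq2. Rosiglitazone gave 3 peaks that rose, all on chromosome 10, and 2 that fell (3.22% and 3.35% of all peaks). The split was 5 and 1 by library size alone and 4 and 4 with level-dependent offsets, and only 1 call was left without S9.

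At the level of whole genes, 2 of the 10 rose after 4 hours of forskolin (Dcn, Kera) and 4 fell (Bgn, Fmod, Ogn, Prelp), where 12.1% of all genes rose and 23.2% fell. After 1 day Dcn rose and Aspn and Prelp fell (9.33% and 28.4% of all genes). After 3 days Dcn rose and Ogn and Prelp fell (5.23% and 10.4%). With rosiglitazone Epyc and Kera rose and none fell (2.37% and 5.15%). The median gene shifted below 0 in this scaling, by a log2 fold change of −0.12, −0.13 and −0.10 at the successive forskolin times and −0.05 for rosiglitazone. By library size alone these medians were −0.02, 0.02, 0.00 and 0.05.

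**Figure D1:**
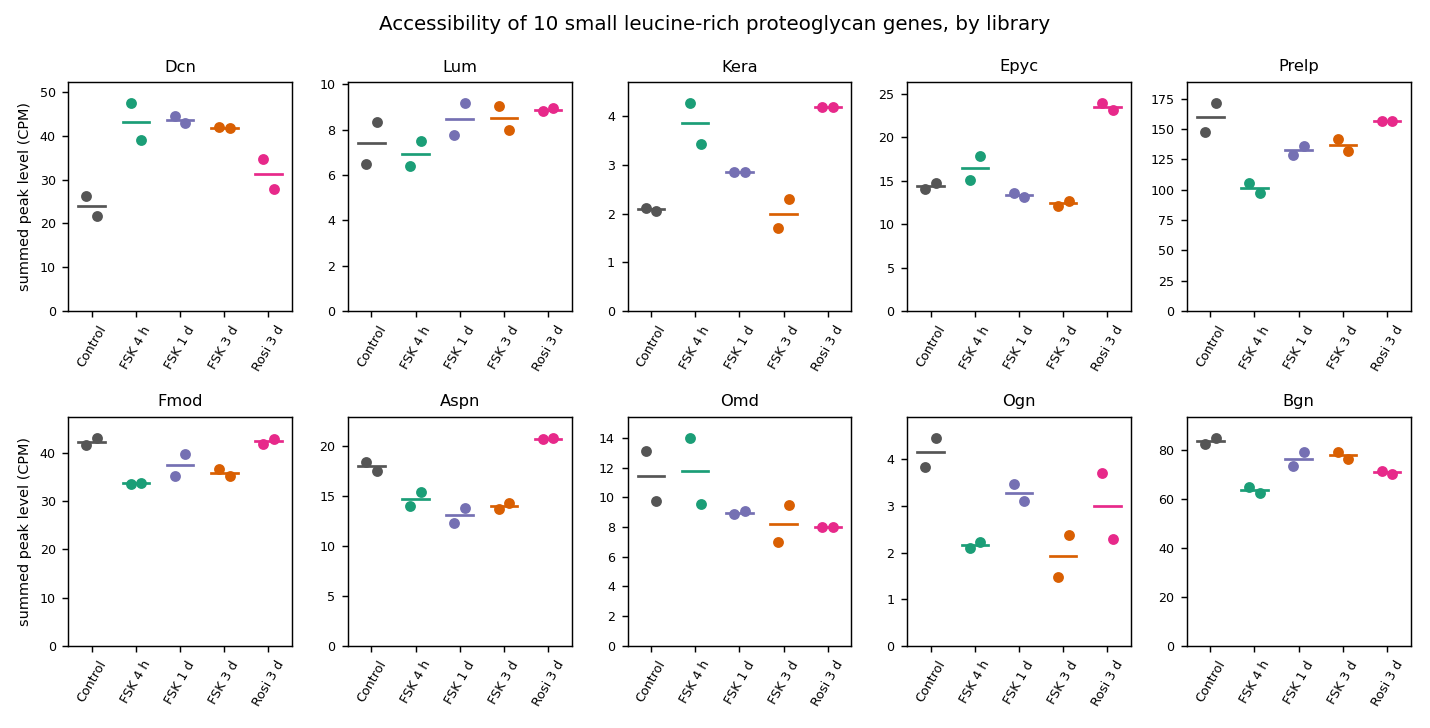
Summed peak level (CPM, linear axes starting at 0) of each of the 10 genes in every library; points are libraries and bars are means of the 2 libraries of a group. Dcn is higher in all 6 forskolin libraries (38.9 to 47.5 CPM) than in the controls (26.2 and 21.8 CPM), Prelp is lowest after 4 hours of forskolin, and Epyc is highest with rosiglitazone.

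Decorin, the class I member that binds collagen and TGF-beta, gained accessibility with forskolin and kept it through 3 days. Its 14 peaks (gene at chromosome 10, 97479500 to 97518163) summed to 26.2 and 21.8 CPM in the controls. They summed to 47.5 and 38.9 CPM after 4 hours, 44.5 and 42.9 CPM after 1 day, 41.9 and 41.7 CPM after 3 days, and 34.7 and 27.9 CPM with rosiglitazone. Every forskolin library lay above both controls and both rosiglitazone libraries. The changes were 0.85 ± 0.13 (SE, adjusted p = 2.9e-05), 0.87 ± 0.12 (adjusted p = 4.4e-05) and 0.81 ± 0.13 (adjusted p = 0.000302) at the 3 times. From peaks inside the gene alone the change at 3 days was 0.53 and not called (adjusted p = 0.0948). With rosiglitazone the value was 0.38 ± 0.13 (adjusted p = 0.0704), which became a call in 7 alternatives. These were library size alone (0.49, adjusted p = 0.0123), level-dependent offsets, only the 2 groups compared, assignment over every annotated gene (not only protein-coding ones), and leaving out S7, S8 or S10. At 3 days forskolin stood above rosiglitazone by 0.42 ± 0.12 (adjusted p = 0.0164), but by 0.27 (adjusted p = 0.259) without S10 and 0.14 (adjusted p = 0.486) over every annotated gene. The call was also lost within 10 kb and from peaks inside the gene alone.

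Most of that gain lay outside the gene, on its lower-coordinate side. Of 9 peaks there, 5 rose after 4 hours and none fell. Inside the gene 1 of 3 tested peaks rose, and the peak on the other side was not called. The peak farthest out among those that rose (97442326 to 97442801, 36.9 kb from the gene) had 1.41 and 0.661 CPM in the controls. It had 4.54 and 3.56 CPM after 4 hours, 4.86 and 4.18 CPM after 1 day, and 3.95 and 3.96 CPM after 3 days, but 0.688 and 0.370 CPM with rosiglitazone. All forskolin libraries exceeded all others, by 2.00 ± 0.38, 2.15 ± 0.37 and 1.96 ± 0.38 over control (adjusted p = 2.3e-05, 7.9e-06 and 0.000119). At 3 days it was 2.90 ± 0.40 higher with forskolin than with rosiglitazone (adjusted p = 3.1e-08).

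A neighbour 32.8 kb out (97446327 to 97447041) had 2.22 and 0.661 CPM in the controls, 3.95 to 5.93 CPM in the 6 forskolin libraries, and 1.24 and 1.23 CPM with rosiglitazone. It rose by 1.95 ± 0.35, 1.71 ± 0.35 and 1.82 ± 0.35, and its later rises were not called without S2 (adjusted p = 0.0707 and 0.0631). The control libraries themselves differ more than 3-fold there. One more, 23.5 kb out (97455635 to 97456273), had 1.11 and 0.413 CPM in the controls and 1.38 to 3.16 CPM with forskolin, and rose by 1.30 ± 0.49, 1.94 ± 0.46 and 1.69 ± 0.48. Its groups do not overlap, yet the rise at 4 hours was lost with level-dependent offsets, with only the 2 groups compared, with DESeq2 and without S2 or S4, and the later rises without S2.

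A peak 1.18 kb outside the gene (97478158 to 97478475) was higher at 4 hours than at the later times. It had 0.909 and 1.07 CPM in the controls, 5.72 and 4.47 CPM after 4 hours, 2.29 and 2.24 CPM after 1 day, 2.24 and 1.82 CPM after 3 days, and 1.24 and 0.926 CPM with rosiglitazone. It rose by 2.34 ± 0.39 at 4 hours (adjusted p = 1.2e-06). Relative to 4 hours it fell by 1.16 ± 0.32 at 1 day and fell by 1.31 ± 0.33 at 3 days, the former not called with DESeq2. The remaining rise at 1 day (1.18 ± 0.41, adjusted p = 0.0283) was lost with level-dependent offsets, with DESeq2 and without any of S1, S2, S5 and S6. Another, 3.97 kb out (97475339 to 97475724), rose at 4 hours by 1.31 ± 0.36, though not without S1, whose 0.707 CPM lay below the 2.64 CPM of S2.

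A weak peak 12.6 kb out (97466767 to 97467075) was the one Dcn peak that rose with rosiglitazone. It had 0 and 0.743 CPM in the controls, 1.77 and 2.14 CPM after 3 days of forskolin and 2.41 and 1.67 CPM with rosiglitazone. Its rises of 2.25 ± 0.60 and 2.31 ± 0.60 were both lost without S1, the control in which it had no count, and the latter also without S9. The Dcn peak with the highest level, inside the gene at 97516393 to 97516824, had 5.15 and 3.96 CPM in the controls and 6.22 to 9.93 CPM with forskolin. It rose by 0.83 ± 0.24, 1.00 ± 0.23 and 0.77 ± 0.24. None of these was called without S2, nor the first without S3, nor the last with DESeq2 or without S7. At the lower gene end itself only 2 peaks were found, with mean levels of 0.356 and 0.493 CPM, and with those alone the gene's value was −0.58 at 4 hours.

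**Figure D2:**
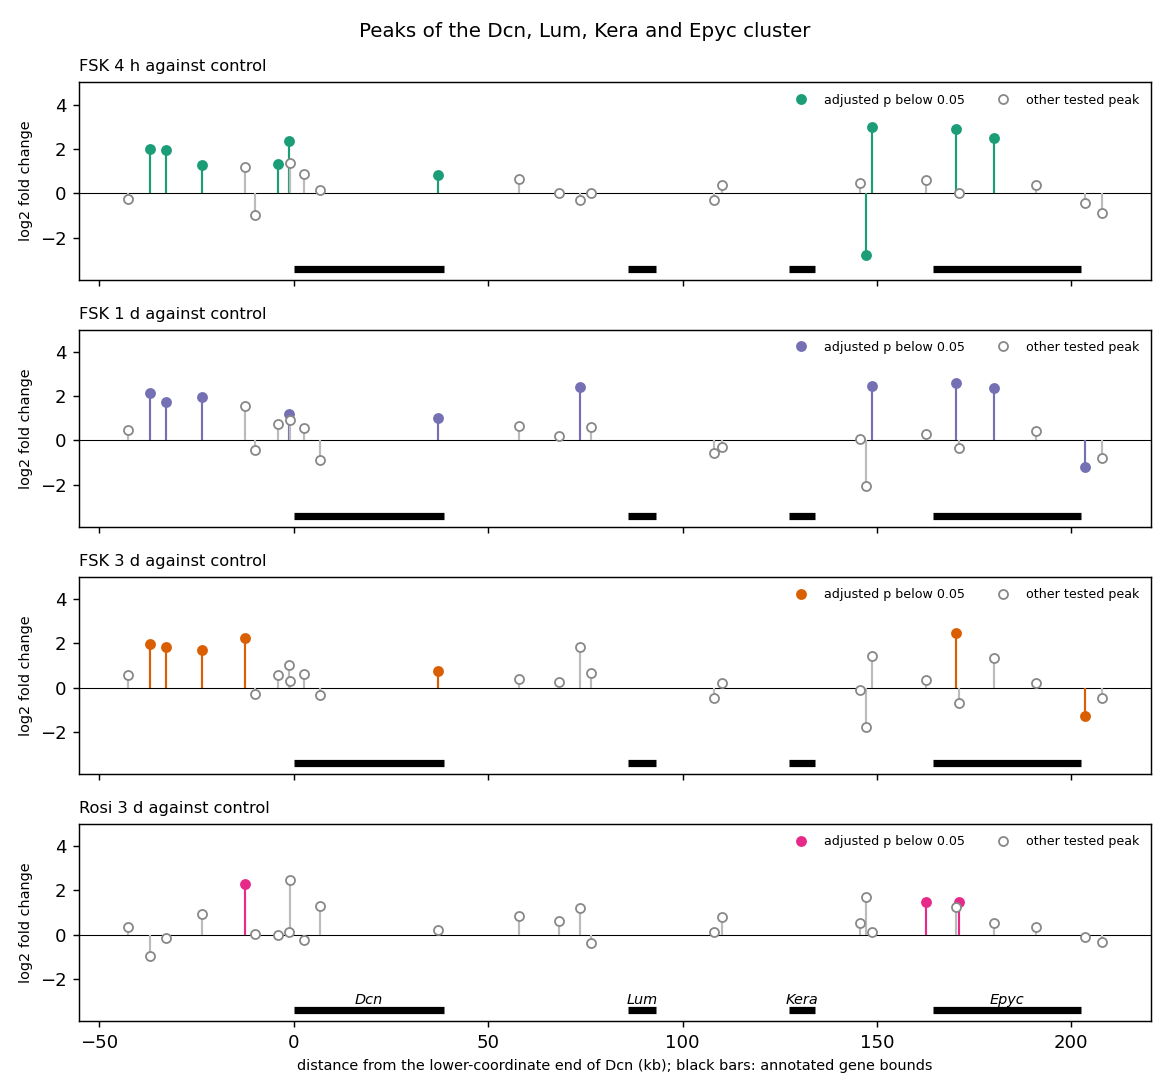
Log2 fold change against control of each tested peak on chromosome 10, by distance in kb from the lower-coordinate end of Dcn; filled points passed the adjusted p of 0.05, open points did not, and black bars are gene bounds. In the forskolin panels filled points above 0 sit to the left of Dcn, inside Dcn and around Kera and Epyc. Another lies between Dcn and Lum at 1 day, and the Rosi panel has 3 filled points.

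Biglycan, the other class I chondroitin sulfate proteoglycan, fell at 4 hours and then returned toward control. Its 11 peaks (gene at X, 73483601 to 73495936) summed to 82.4 and 85.0 CPM in the controls and 64.8 and 62.4 CPM after 4 hours. They summed to 73.4 and 79.3 CPM after 1 day, 79.1 and 76.5 CPM after 3 days, and 71.4 and 70.4 CPM with rosiglitazone. No treated library reached either control. The fall at 4 hours was −0.40 ± 0.08 (adjusted p = 0.00104) and was called under every alternative tried. Values of −0.13 ± 0.08 at 1 day and −0.10 ± 0.08 at 3 days were not called, where the median gene stood at −0.13 and −0.10. The Bgn values turned to 0.06 and 0.02 with level-dependent offsets. The value with rosiglitazone was −0.24 ± 0.08 (adjusted p = 0.0796), called with only the 2 groups compared (adjusted p = 0.0325) and without S7 or S8 (0.0248 and 0.0239). From the gene-end peaks alone the value at 1 day was −0.60 (adjusted p = 0.0089). From 4 hours to 3 days the gene rose by 0.29 ± 0.08 (adjusted p = 0.0277).

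At the Bgn start, the peak shown with its promoter (73483528 to 73483895) had 7.37 and 8.59 CPM in the controls. It had 3.94 and 5.61 CPM after 4 hours, 4.36 and 6.31 CPM after 1 day, 5.31 and 3.80 CPM after 3 days, and 6.81 and 4.38 CPM with rosiglitazone. All treated libraries lay below both controls. It fell by 0.74 ± 0.24 at 4 hours and 0.80 ± 0.25 at 3 days (adjusted p = 0.0145 and 0.0197), neither of which was called with DESeq2 or without S2, nor the first without S3, nor the second by library size alone or without S8. The strongest Bgn peak, 7.00 kb outside the gene (73476103 to 73477090), had 27.1 and 33.0 CPM in the controls and 22.9 and 21.7 CPM after 4 hours. It fell by 0.43 ± 0.13 (adjusted p = 0.00728), not called without S2 or S4. A small peak inside the gene (73491017 to 73491195) went the other way after 1 day, from 0.606 and 0.826 to 2.18 and 2.14 CPM (1.57 ± 0.50), a call lost with DESeq2 and without any of those 4 libraries.

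Asporin, a class I member that carries no glycosaminoglycan chain and binds collagen and TGF-beta, was lower with forskolin and highest with rosiglitazone. Its 6 peaks on chromosome 13 summed to 18.5 and 17.5 CPM in the controls, 14.1 and 15.5 CPM after 4 hours, 12.4 and 13.8 CPM after 1 day, 13.7 and 14.3 CPM after 3 days, and 20.7 and 20.9 CPM with rosiglitazone. All forskolin libraries lay below the controls and both rosiglitazone libraries above them. The gene fell after 1 day by 0.46 ± 0.13 (adjusted p = 0.0104; not called by library size alone or without S1 or S5). Its values of −0.28 ± 0.13 at 4 hours, −0.36 ± 0.13 at 3 days and 0.21 ± 0.13 with rosiglitazone were not called. With Cenpp left out of the annotation, peaks that lay inside Cenpp alone pass to the nearest remaining gene within 50 kb. Aspn then gains such peaks and keeps those it shares with Cenpp. Its values at 4 hours and 3 days became −0.36 and −0.45, both called (adjusted p = 0.0353 and 0.0241). Forskolin at 3 days stood 0.57 ± 0.13 below rosiglitazone (log2 fold change −0.57, adjusted p = 0.00361), under every alternative tried.

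Its peak at 49546446 to 49546887, inside Aspn and Cenpp, changed most. It had 4.44 and 3.39 CPM in the controls, 0.920 and 1.09 CPM after 4 hours, 1.84 and 1.17 CPM after 1 day, 2.30 and 2.06 CPM after 3 days, and 5.71 and 5.99 CPM with rosiglitazone. All forskolin libraries lay below the controls, and both rosiglitazone libraries above them. It fell by 1.94 ± 0.37 at 4 hours (adjusted p = 1.8e-05) and by 1.37 ± 0.34 at 1 day, the latter not called without S6. The strongest Aspn peak, at 49559285 to 49559561, fell by 0.71 ± 0.25 and 0.74 ± 0.25 at 4 hours and 1 day, calls lost by library size alone, with DESeq2 and without S2. Cenpp itself, summed over all its peaks, fell by 0.57, 0.56 and 0.52 at the 3 forskolin times (adjusted p = 7.5e-06, 2.4e-05 and 0.000164). One Aspn peak rose at 4 hours (49560866 to 49561198, from 1.51 and 0.578 to 2.89 and 2.17 CPM, 1.31 ± 0.47), a call lost with DESeq2 and without S2 or S3.

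Among class II genes the change of greatest reach was at Prelp, whose product anchors basement membrane to collagen. Its 16 peaks (gene at chromosome 1, from 133910304) summed to 148 and 171 CPM in the controls and 106 and 97.3 CPM after 4 hours. They summed to 129 and 136 CPM after 1 day, 142 and 132 CPM after 3 days, and 157 and 156 CPM with rosiglitazone. All forskolin libraries lay below the controls, those of 4 hours lowest, and the rosiglitazone libraries lay between the controls. The gene fell by 0.66 ± 0.08 at 4 hours (adjusted p = 1.7e-06), under every alternative tried. It fell by 0.27 ± 0.07 at 1 day (adjusted p = 0.00752). That fall was not called by library size alone, with level-dependent offsets, or without S2 or S5. It was also lost over every annotated gene and from peaks inside the gene alone. The fall of 0.22 ± 0.08 at 3 days (adjusted p = 0.0487) was a call kept by only 5 of 21 alternatives. With rosiglitazone the value was −0.03 ± 0.07, and 0.07 by library size alone. Forskolin against rosiglitazone at 3 days gave −0.19 ± 0.07, called by library size alone (adjusted p = 0.0464) and without S7 (−0.24, adjusted p = 0.0306).

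At 4 hours 10 of the 16 Prelp peaks fell and 1 rose: 3 of 4 inside the gene fell, and 7 of 12 outside it fell. The deepest fall was in a peak 4.42 kb outside the gene (133934290 to 133934745), which had 10.1 and 14.0 CPM in the controls, 2.37 and 2.90 CPM after 4 hours, 4.75 and 5.40 CPM after 1 day, 7.31 and 5.54 CPM after 3 days, and 6.88 and 6.79 CPM with rosiglitazone. Every treated library lay below both controls, and the 4-hour libraries lay below all others. The changes were −2.19 ± 0.24, −1.25 ± 0.21, −0.90 ± 0.21 and −0.82 ± 0.21 (adjusted p = 5.0e-12, 4.8e-06, 0.0015 and 0.00724). Without S2, the control with 14.0 CPM, the changes at 3 days of forskolin and with rosiglitazone were not called, and the latter was also lost without S9 or S10.

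Inside the gene, a peak at 133915940 to 133916500 went from 11.9 and 10.4 CPM in the controls to 3.42 and 3.92 CPM after 4 hours (−1.59 ± 0.21, adjusted p = 5.7e-09). It stood at 6.99 and 8.25 CPM after 1 day, 6.31 and 8.78 CPM after 3 days and 12.2 and 12.6 CPM with rosiglitazone. The 4-hour libraries are again the lowest, and the falls of 0.54 and 0.58 at the later times were lost by library size alone, with DESeq2 and without S1, S2 or a library of the treated group. The strongest Prelp peak, 48.5 kb out (133978094 to 133979165), had 27.7 and 35.2 CPM in the controls, 14.3 and 16.1 CPM after 4 hours, 22.3 and 22.6 CPM after 1 day, 24.9 and 24.4 CPM after 3 days, and 39.0 and 37.7 CPM with rosiglitazone. It fell by 1.05 ± 0.14 at 4 hours, and the rosiglitazone libraries lay above all others. It is also among the peaks nearest to the 50 kb limit: the next peak beyond it, 51.3 kb from Prelp and not counted with it, had 18.2 CPM in the controls and 26.2 CPM after 4 hours.

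The peak that holds the Prelp promoter window shown above (133921293 to 133921740) followed a different course. It had 5.55 and 4.79 CPM in the controls, 3.88 and 1.99 CPM after 4 hours, 1.62 and 2.60 CPM after 1 day, 2.01 and 2.85 CPM after 3 days, and 3.99 and 3.58 CPM with rosiglitazone. All treated libraries were below both controls. It fell by 0.82 ± 0.31, 1.28 ± 0.31 and 1.10 ± 0.32 at the 3 times (adjusted p = 0.0332, 0.00144 and 0.0114), with no call from 4 hours to the later times. The 4-hour call was lost by library size alone, with DESeq2 and without S1, S2 or S4, the 1-day call without S5 and the 3-day call with DESeq2 and without S1 or S7. Its value with rosiglitazone was −0.45. This window lies inside the gene bounds, whereas Prelp, on the minus strand, has its outer start at the higher end. The peak there (133929856 to 133930767) had 10.1 and 11.1 CPM in the controls. It had 7.49 and 6.76 CPM after 4 hours and 6.76 and 8.66 CPM after 1 day. Values were 10.6 and 9.42 CPM after 3 days and 13.4 and 12.2 CPM with rosiglitazone. It fell by 0.58 at 4 hours (adjusted p = 0.0133), not called by library size alone or without S2 or S4.

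Further Prelp peaks that fell at 4 hours, under every alternative tried, lay inside the gene at 133917759 (−1.67 ± 0.35) and outside it at 133933420 (−1.85 ± 0.44), 133959492 (−1.22 ± 0.19) and 133968797 (−2.10 ± 0.40). A pair of Prelp peaks rose. The peak at 133911538 to 133911960, inside the gene, had 4.54 and 3.88 CPM in the controls and 7.82 and 9.22 CPM after 1 day (1.02 ± 0.23, adjusted p = 0.000601). The peak at 133953191 to 133953848, 23.4 kb out, rose by 0.89, 0.66 and 0.62 at the 3 times.

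**Figure D3:**
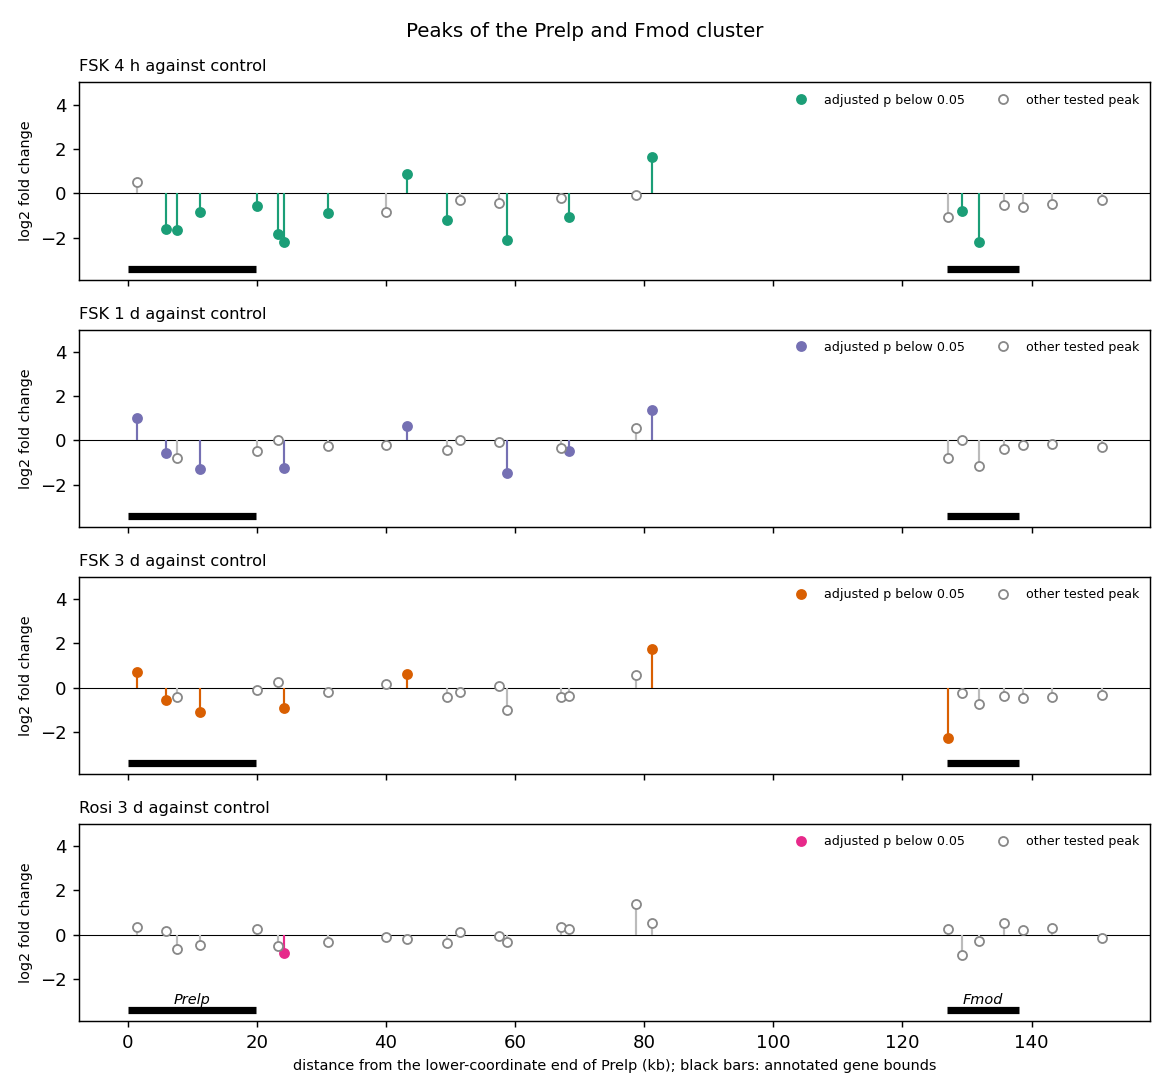
Log2 fold change against control of each tested peak on chromosome 1, by distance in kb from the lower-coordinate end of Prelp; filled points passed the adjusted p of 0.05, open points did not, and black bars are gene bounds. At 4 hours most filled points lie below 0 (12 of 14), fewer peaks are filled at the later times, and with rosiglitazone 1 point is filled.

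Fibromodulin, which binds collagen and guides its cross-linking, shares the chromosome 1 cluster and changed less. Its 9 peaks summed to 41.6 and 43.1 CPM in the controls, 33.6 and 33.8 CPM after 4 hours, 35.3 and 39.7 CPM after 1 day, 36.7 and 35.1 CPM after 3 days, and 41.9 and 43.0 CPM with rosiglitazone. The forskolin libraries all lay below the controls, while the rosiglitazone libraries lay within their range. The fall at 4 hours was 0.33 ± 0.10 (adjusted p = 0.0133). It was not called by library size alone, with level-dependent offsets, from gene-end peaks alone or without S2, S3 or S4. Values of −0.18 ± 0.10 and −0.24 ± 0.10 at the later times were not called. At 3 days Fmod fell by 0.48 within 10 kb (adjusted p = 0.0264) or over every annotated gene (adjusted p = 0.0189), and it was then below rosiglitazone at −0.54. Against the gene's direction, a peak 45.8 kb out on the side of Prelp (133991238 to 133991716) rose from 0.808 and 2.06 CPM in the controls to 4.93 and 4.47 CPM after 4 hours, 3.30 and 4.33 CPM after 1 day and 5.49 and 4.35 CPM after 3 days, by 1.66 ± 0.36, 1.36 ± 0.36 and 1.73 ± 0.35. The rise at 1 day was not called without S1 or S6. Its rosiglitazone libraries, at 1.17 and 3.02 CPM, overlap the controls.

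At the Fmod start, the weak peak just after the promoter window shown above (134037278 to 134037474) had 1.21 and 1.49 CPM in the controls, 0.118 and 0.475 CPM after 3 days of forskolin, and 2.06 and 1.23 CPM with rosiglitazone. It fell at 3 days by 2.26 ± 0.71 (adjusted p = 0.022), which was not called with DESeq2 or without S2 or S7. Inside the gene a peak at 134042044 to 134042193 fell at 4 hours from 1.51 and 2.81 to 0.460 and 0.483 CPM (−2.19 ± 0.53, adjusted p = 0.000808), not called without S2. The strongest Fmod peak, 12.9 kb out on the other side (134060864 to 134061487), had 21.4 and 21.7 CPM in the controls and 16.5 to 18.3 CPM with forskolin, and was not called.

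Lumican, a class II keratan sulfate proteoglycan of collagen fibrils, lies next to Dcn but as a gene, with the 50 kb rule, did not pass the test in any comparison. All its 5 peaks lay outside it, and they summed to 6.46 and 8.34 CPM in the controls and to between 6.38 and 9.17 CPM in the treated libraries. Its values were −0.10 ± 0.20, 0.19 ± 0.19, 0.20 ± 0.19 and 0.25 ± 0.19 in the 4 comparisons with control, and −0.10 turned to 0.10 without S2. Over every annotated gene it rose after 1 day by 0.87 (adjusted p = 0.017), and within 10 kb it was higher with forskolin than with rosiglitazone by 1.05 (adjusted p = 0.0481). One weak peak 12.3 kb out (97553045 to 97553275) opened late: it had 0.202 and 0.413 CPM in the controls, 0.460 and 0.0604 CPM after 4 hours, 1.34 and 2.09 CPM after 1 day, 1.65 and 0.554 CPM after 3 days, and 0.688 and 0.802 CPM with rosiglitazone. It rose by 2.42 ± 0.71 at 1 day over control (adjusted p = 0.00812, not called without S1 or S6) and by 2.72 ± 0.68 over 4 hours (adjusted p = 0.00745). The latter was not called with DESeq2.

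Keratocan, a class II member best known from the cornea, had the lowest level of the family per kb of peak. Its 3 peaks, all outside the gene on its higher side, summed to 2.12 and 2.06 CPM in the controls, 4.27 and 3.44 CPM after 4 hours, 2.85 and 2.85 CPM after 1 day, 1.71 and 2.29 CPM after 3 days, and 4.20 and 4.20 CPM with rosiglitazone. It rose at 4 hours (0.88 ± 0.31, adjusted p = 0.031) and with rosiglitazone (1.00 ± 0.31, adjusted p = 0.0473), and neither rise was called with DESeq2 or without S1, S2 or S3. The rise with rosiglitazone was kept by only 6 of 17 alternatives, and was also lost with level-dependent offsets. No single Kera peak was called with rosiglitazone against control. The peak 14.5 kb out (97628022 to 97628333) had counts of 0 and 6 in the controls, 40 and 30 after 4 hours, 33 and 23 after 1 day, 8 and 13 after 3 days, and 2 and 7 with rosiglitazone. It rose by 3.01 ± 0.69 and 2.45 ± 0.71 at 4 hours and 1 day and was 1.60 ± 0.56 lower (log2 fold change −1.60) at 3 days than at 4 hours. The rise at 1 day was not called without S1 (1.59, adjusted p = 0.139) or without S5 (2.10, adjusted p = 0.0953).

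The peak beside it, 13.1 kb out (97626659 to 97626895), showed the reverse. It had 1.01 and 0.413 CPM in the controls, 0 and 0.181 CPM after 4 hours, and 2.75 and 1.79 CPM with rosiglitazone. With 3 counts after 4 hours against 15 in the controls, the controls stood 7.22-fold higher (95% counting interval 2.04 to 38.9). That interval holds the counting noise of pooled libraries only, not the spread between libraries. This fall was not called without S1 (−2.05, adjusted p = 0.241) or without S3 (−1.89, adjusted p = 0.219). Forskolin at 3 days, with 0.295 and 0.0791 CPM, lay below rosiglitazone by 3.46 ± 0.78 (log2 fold change −3.46, adjusted p = 0.000494), under every alternative tried.

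Osteomodulin, a keratan sulfate proteoglycan of bone, had 2 peaks that also count for Cenpp. They summed to 13.1 and 9.75 CPM in the controls, 14.0 and 9.54 CPM after 4 hours, and 6.96 to 9.50 CPM in the other 6 libraries. Only the 4-hour libraries overlap the controls, and no gene value against control (0.05 ± 0.20, −0.34 ± 0.20, −0.48 ± 0.21 and −0.50 ± 0.21) was called. With Cenpp left out of the annotation, which adds peaks from inside Cenpp to the sum, Omd fell by 0.59 after 1 day and by 0.64 after 3 days (adjusted p = 0.0057 and 0.0112). Without S8 its value after 3 days was −0.70. Its stronger peak (49583936 to 49584579) fell with rosiglitazone from 7.87 and 5.29 to 3.30 and 4.07 CPM (−0.81 ± 0.26, adjusted p = 0.0449), a call lost by library size alone, with DESeq2 and without any of S1, S5, S6, S9 and S10. Its 4-hour value turned to −0.16 without S2 and −0.25 without S3.

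Of the class III genes, epiphycan, known from growth plate cartilage, rose with rosiglitazone. Its 7 peaks summed to 14.0 and 14.7 CPM in the controls, 15.1 and 17.8 CPM after 4 hours, 13.6 and 13.1 CPM after 1 day, 12.2 and 12.7 CPM after 3 days, and 24.0 and 23.2 CPM with rosiglitazone. The rosiglitazone libraries stood above all others. The rise of 0.71 ± 0.13 (adjusted p = 0.00247) and the difference of forskolin from rosiglitazone at 3 days (−0.93 ± 0.13, adjusted p = 4.4e-05) were called under every alternative tried. The forskolin values were 0.20 ± 0.14, −0.10 ± 0.14 and −0.22 ± 0.14, none called, and that at 1 day turned to 0.05 by library size alone. From peaks inside the gene alone Epyc rose by 0.83 at 4 hours and 0.62 at 1 day (adjusted p = 0.0075 and 0.0336). With peaks assigned over every annotated gene, not only protein-coding ones, it rose by 0.74 and 0.50 (adjusted p = 0.0019 and 0.030).

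Single Epyc peaks moved in opposite ways. The peak at 97650346 to 97650981, inside the gene, had 2.73 and 2.06 CPM in the controls, 7.43 and 5.80 CPM with rosiglitazone and 1.30 to 2.50 CPM with forskolin. It rose with rosiglitazone by 1.47 ± 0.31 (adjusted p = 0.000967; 0.0507 without S9). A peak 2.03 kb outside the gene (97641761 to 97642318) rose with rosiglitazone from 1.82 and 3.55 to 6.95 and 8.33 CPM (1.48 ± 0.29). A weak peak just before the former, at 97649721 to 97649855, opened with forskolin instead, from 0.101 and 0.330 CPM in the controls to between 1.27 and 1.99 CPM in the 6 forskolin libraries (2.89 ± 0.69, 2.60 ± 0.69 and 2.47 ± 0.71). The later rises were lost without S1, and that at 3 days also without S7. The one at 97659590 to 97659761 rose at 4 hours and 1 day by 2.50 ± 0.70 and 2.35 ± 0.70, the latter not called without S1 or S5. Past the higher gene end, the peak at 97682947 to 97683264 had 4.64 and 5.20 CPM in the controls, 2.29 and 1.99 CPM after 1 day and 2.12 and 1.98 CPM after 3 days, and fell by 1.21 ± 0.29 and 1.26 ± 0.30.

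Osteoglycin, whose product also lies on collagen fibrils, had 3 weak peaks inside Cenpp. They summed to 3.84 and 4.46 CPM in the controls, 2.10 and 2.23 CPM after 4 hours, 3.46 and 3.11 CPM after 1 day, 1.47 and 2.37 CPM after 3 days, and 3.72 and 2.28 CPM with rosiglitazone. All treated libraries lay below the controls. It fell by 0.94 ± 0.33 at 4 hours and 1.14 ± 0.34 at 3 days (adjusted p = 0.0299 and 0.0262). The former was not called by library size alone, with DESeq2 or without S1, S2, S3 or S4, and the latter with only the 2 groups compared or without S1, S2 or S7. With Cenpp left out of the annotation, which likewise adds peaks to its sum, it also fell by 0.61 after 1 day (adjusted p = 0.0057). At 3 days it then stood below rosiglitazone by 0.74 (log2 fold change −0.74, adjusted p = 0.0041). Its strongest peak (49623217 to 49623525) fell at 3 days from 2.32 and 3.22 to 0.826 and 1.58 CPM (−1.25 ± 0.43, adjusted p = 0.0375), a call lost by library size alone, with DESeq2 and without S2 or S7.

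**Figure D4:**
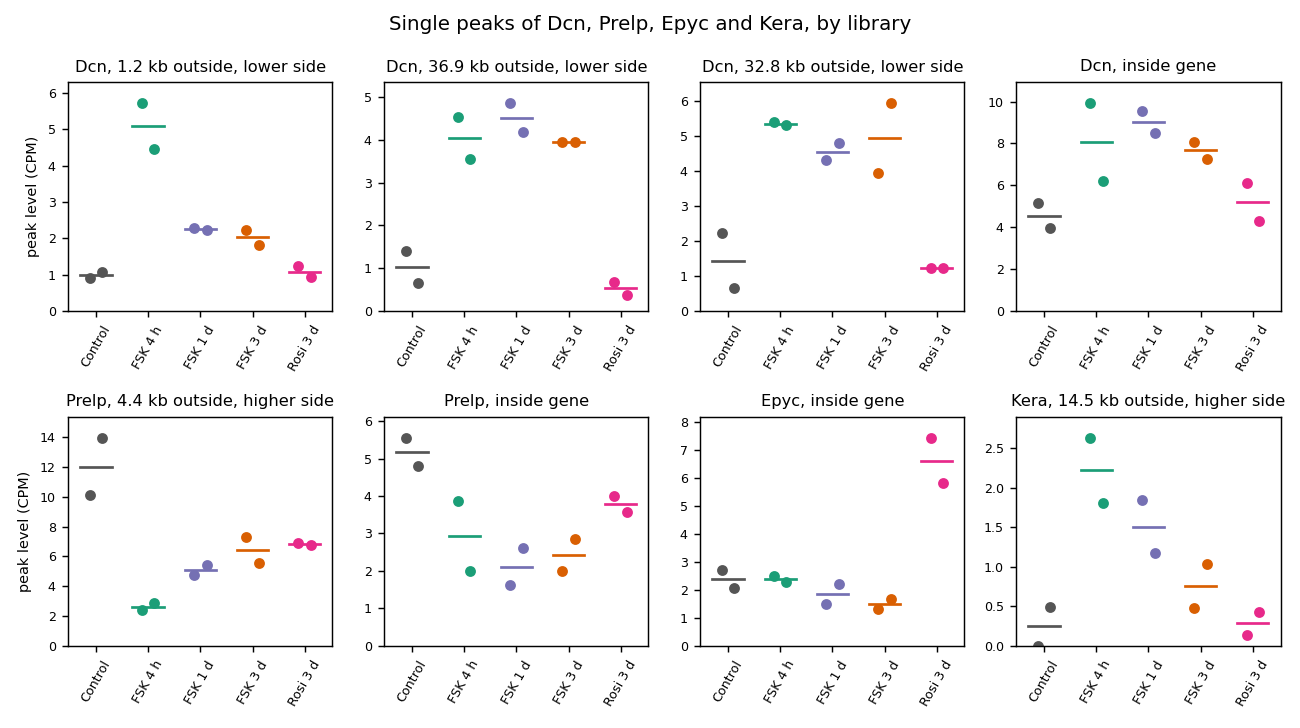
Level (CPM, linear axes starting at 0) of 8 single peaks in every library; points are libraries and bars are means of the 2 libraries of a group. The Dcn peak 1.2 kb outside the gene is highest at 4 hours, those 36.9 and 32.8 kb out stay high at all 3 forskolin times, the Prelp peak 4.4 kb out is lowest at 4 hours, the peak inside Epyc is highest with rosiglitazone, and the Kera peak declines after 4 hours.

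Per kb of peak, Bgn was the most accessible gene, at a mean of 16.9 CPM per kb over the 10 libraries, followed by Prelp (14.2) and Fmod (13.3). Aspn and Omd had 9.68 and 9.59 CPM per kb, Epyc 7.28, Dcn 5.95, Ogn 4.20, Lum 3.96 and Kera 3.01. Neighbours in this order with little between them, such as Aspn and Omd or Ogn and Lum, were not tested against each other, and accessibility per kb is no measure of transcript level.

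Forskolin and rosiglitazone were compared directly at 3 days. Of the 74 peaks, 6 were higher with forskolin and 12 lower, where 12.9% and 8.82% of all peaks were. The 18 calls became 9 without S7. On chromosome 1, 2 were higher and 6 lower, and on chromosome 10, 3 higher and 4 lower. Among genes, Dcn was higher with forskolin and Aspn, Epyc and Kera were lower, against 8.41% and 8.39% of all genes. The Kera call was lost without S7, S9 or S10 (adjusted p = 0.118, 0.0734 and 0.0663). These values share libraries with the comparisons with control above.

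Between forskolin times, 8 of the 74 peaks were higher and 1 lower at 1 day than at 4 hours (2.58% and 2.99% of all peaks), 6 of the 8 on chromosome 1. Without S3, S5 or S6 the 9 calls became 4. At 3 days against 4 hours, 12 were higher and 3 lower (4.38% and 6.75% of all peaks), with 7 of the 12 on chromosome 1. These 15 calls became 9 without S3, 8 without S4 and 7 without S7. As a gene, Prelp rose from 4 hours to 1 day by 0.39 ± 0.08 (adjusted p = 0.00384), alone of the 10, where 2.01% of all genes rose and 3.31% fell. From 4 hours to 3 days Prelp rose by 0.43 ± 0.08 (adjusted p = 0.000755), Bgn rose as given above and Kera fell by 0.96 ± 0.30 (adjusted p = 0.0436), where 3.67% rose and 5.04% fell. Between 1 and 3 days no peak of the family was called by edgeR or DESeq2 (0.109% of all peaks rose and 0.0773% fell by edgeR), and 5 of 74 had an unadjusted p below 0.05.

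By gene accessibility over the 10 libraries, the 5 genes most like Dcn among 8284 ranked were Hecw2 (Pearson r = 0.948), Tenm3 (r = 0.944), Mrap (r = 0.939), Abi3bp (r = 0.939) and Nek6 (r = 0.930). Mrap, the accessory protein of the ACTH receptor, had 58.1 ± 3.2 CPM in the controls (SD, n = 2), 92.7 ± 5.4 CPM after 4 hours, 91.7 ± 0.78 CPM after 1 day, 94.8 ± 3.3 CPM after 3 days and 65.6 ± 4.5 CPM with rosiglitazone. Tenm3 codes for a teneurin adhesion protein, Nek6 for a mitotic kinase, Hecw2 for a ubiquitin ligase and Abi3bp for a matrix protein. Within the family, r with Dcn was −0.82 for Fmod, −0.75 for Aspn, −0.69 for Prelp, −0.06 for Lum and 0.20 for Kera. The points share libraries and 5 group means, so these r are descriptions. They do not give the size of a change. At 4 hours the log2 fold change was 0.49 for Hecw2, 0.35 for Tenm3 and 0.67 for Mrap. It was 0.14 for Abi3bp and 0.31 for Nek6, against 0.85 for Dcn.

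Other genes of matrix biology are given by their counts after 4 hours of forskolin, beside the 12.1% of all genes that rose and 23.2% that fell. Of 8 tested further members of the proteoglycan family, 3 rose and none fell (median log2 fold change 0.13), with nephrocan (Nepn) up from 5.80 to 14.7 CPM (1.34 ± 0.18). Of 18 fibrillar collagens and assembly genes, 7 rose and 3 fell (median 0.05). Col3a1 went from 31.9 to 54.8 CPM (0.78 ± 0.10), while Comp, a collagen-binding cartilage protein, went from 79.4 to 29.7 CPM (−1.42 ± 0.11). Of 23 genes of glycosaminoglycan chain synthesis, 6 rose and 7 fell (median −0.03). Both chondroitin enzymes with the smallest adjusted p rose, Chst11 by 0.45 ± 0.05 and Csgalnact1 by 0.51 ± 0.07.

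Of 18 matrix processing genes, 6 rose and 4 fell (median −0.07). Pcolce, an enhancer of procollagen cleavage, fell by 0.61 ± 0.10 and Bmp1, the protease it assists, rose by 0.35 ± 0.09. Of 20 TGF-beta and BMP pathway genes, 4 rose and 4 fell (median −0.07), with Ltbp1, which stores latent TGF-beta in the matrix, up by 0.47 ± 0.06 and Tgfb2 down at −0.56 ± 0.09. Of 10 tested receptors reported to bind these proteoglycans, 3 rose and 2 fell (median 0.10), with Itga2 at 0.68 ± 0.11 and Kdr, also an endothelial marker, at 0.60 ± 0.10. Of 19 other proteoglycans, 5 rose and 2 fell (median 0.03), with Prg4, the lubricant of joints, up from 40.8 to 83.3 CPM (1.03 ± 0.09) and syndecan 1 (Sdc1) up by 0.54 ± 0.07. The median of all genes was −0.12.

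Marker sums moved too. Adipocyte markers summed to 956 and 1066 CPM in the controls, 836 and 838 CPM after 1 day of forskolin and 1135 and 1160 CPM with rosiglitazone. With rosiglitazone 2 of these 9 markers rose and 1 fell (2.37% and 5.15% of all genes). Their median log2 fold change was −0.08, against −0.05 over all genes, so the higher sum does not describe the set. Progenitor or fibroblast markers summed to 835 and 842 CPM in the controls and 768 to 818 CPM with forskolin. Macrophage and immune markers summed to 141 and 146 CPM in the controls and 182 and 183 CPM after 4 hours, and bone and cartilage markers to 399 and 418 CPM and 450 and 475 CPM. Of 8 tested bone and cartilage markers 1 rose and none fell at 4 hours. Their median log2 fold change was 0.02, against −0.12 over all genes, so that higher sum does not describe the set. After 4 hours 12.1% of all genes rose and 23.2% fell. Among adipocyte markers 1 of 9 rose and 4 fell, and 1 of 11 progenitor markers fell. Of 9 macrophage and immune markers 4 rose and 1 fell, and of 8 endothelial markers 3 rose and 1 fell. Of 6 smooth muscle markers 1 rose and 3 fell, and their sums were 163 and 174 CPM in the controls and 131 to 142 CPM with forskolin. In bulk nuclei, fewer cells of a type and less open chromatin per cell cannot be told apart, and the part of such shifts in the values above was not tested.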

How the data were processed

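Open chromatin was profiled by ATAC-seq in 10 libraries, 2 in each of 5 groups. The authors deposited a table of raw counts for 122984 peaks (mm10), not normalized. Per the submitters' processing notes, the tools were MACS2, featureCounts, Bowtie2, fastp, Picard, SAMtools and deepTools. Their versions and roles, whether peaks were called on pooled reads, and the treatment of duplicate reads and of the Tn5 cut offset are not given in the sources used here. Columns were placed in groups by name. Their running numbers S1 to S10 name libraries only and are not the labelled replicate numbers.

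Peaks were assigned to protein-coding genes by the centre of the peak and the outer RefSeq GRCm38.p6 bounds, which come without strand. Counts were tested with edgeR 4.0.16 (quasi-likelihood, robust, TMM factors, default expression filter) in 1 fit over all libraries, with group as the only term and Benjamini-Hochberg adjustment over all peaks or genes. Gene counts are sums over assigned peaks with the library sizes of the peak table. SE was derived from the F statistic. The script was tested on simulated data. Alternatives were library size alone, offsets fitted to the peak level (limma 3.58.1), no filter, only the 2 groups compared, DESeq2 1.42.0, an adjusted p below 0.01, other assignment rules and leaving out each library. Leaving Cenpp out of the annotation was added after seeing the data. It passes peaks inside Cenpp alone to the nearest remaining gene within 50 kb, so it does not free the family's genes of Cenpp peaks.

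The named peaks are each gene's strongest peak, its strongest peak within 1 kb of a gene end, and those called against control with a change of at least 2-fold and no overlap of libraries. Others are named where they make up a count or lie at the distance limit, chosen after their values were seen. The strongest peaks of Lum and Kera and the strongest gene-end peak of Fmod, none called against control, are not described above. For each list of matrix genes, the pair with the smallest adjusted p is named, but for the further family members only Nepn. No pair is named for the marker lists. For likeness to Dcn, the 5 genes with the highest r on log2 CPM (prior count 2) at or above the median level are named. The genes and lists were chosen with earlier results of these data known. Protein sequences and distal genome sequence were not used here.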

Additional observations from a re-analysis of the deposited data

Results flagged for a closer look

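Accessibility differed between forskolin times at several places in the family, by the test of the difference itself (edgeR, adjusted over all peaks or genes, 2 libraries a group). Values are log2 fold changes. Summed over genes, Prelp was higher at 1 day (0.39) and 3 days (0.43) than at 4 hours, Bgn was higher at 3 days (0.29), and Kera was lower at 3 days (−0.96).

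Of single peaks at Prelp, that at 133915940 was higher at 1 day (1.05) and 3 days (1.02) than at 4 hours, and that at 133917759 at 3 days (1.24). The peak at 133933420 was higher by 1.86 and 2.11, that at 133934290 by 0.94 and 1.29, that at 133959492 by 0.78 and 0.79, and that at 133978094 by 0.56 and 0.70. The Aspn peak at 49546446 was higher at 3 days (1.11). The Lum peak at 97553045 was higher at 1 day (2.72) and 3 days (2.13). In the opposite direction, the Dcn peak at 97478158 was lower at 1 day (−1.16) and 3 days (−1.31), and the Kera peak at 97628022 was lower at 3 days (−1.60). With DESeq2, no peak on chromosome 10 was called at 1 day against 4 hours, which drops the Dcn and Lum differences at that time. None on chromosome 13 was called at 3 days against 4 hours, which drops the Aspn difference. How each single difference fared under the other alternatives was not examined.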

How the results depend on the processing

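Depth and 2 libraries a group limit the weak peaks, and 31 of 77 calls of named peaks and 5 of 18 gene calls held under every alternative tried. No paired analysis was possible because the column numbers do not give the labelled replicate of a library.

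Assignment within 10 kb took peaks from the family, so the peaks called became 20 of 31 after 4 hours of forskolin, 12 of 21 after 1 day, 10 of 16 after 3 days, 11 of 18 for forskolin against rosiglitazone, 4 of 9 for 1 day against 4 hours and 9 of 15 for 3 days against 4 hours. Assignment over every annotated gene gave 11 for forskolin against rosiglitazone. DESeq2 gave 9 after 3 days, 4 for 1 day against 4 hours and 9 for 3 days against 4 hours, and an adjusted p below 0.01 gave 8 after 3 days and 9 for 3 days against 4 hours. Offsets by level gave 8 with rosiglitazone. Over all 80 gene tests, 22 were called, 11 at an adjusted p below 0.01 and 5 from gene-end peaks alone, where fewer tests could be made.

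Leaving out each library in turn, the peaks called ranged from 24 to 31 after 4 hours, 14 to 24 after 1 day, 8 to 18 after 3 days, 1 to 6 with rosiglitazone, 9 to 19 for forskolin against rosiglitazone, 4 to 9 for 1 day against 4 hours, 7 to 16 for 3 days against 4 hours and 36 to 47 in the joint test, were 0 between 1 and 3 days, and the gene calls ranged from 15 to 25.

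Some gene values changed sign, in 35 combinations of a value and an alternative, and the cause was not tested. From gene-end peaks alone Dcn stood at −0.58, −0.81 and −0.91 at the 3 forskolin times and −1.30 against rosiglitazone, and Prelp at 0.26 with rosiglitazone. By library size alone Bgn stood at 0.021 and Epyc at 0.050 after 1 day, Kera at 0.018 after 3 days and Prelp at 0.071 with rosiglitazone. With offsets by level Bgn stood at 0.063 after 1 day and 0.021 after 3 days, Prelp at 0.068 with rosiglitazone and Lum at 0.0072 against rosiglitazone. Fmod with rosiglitazone was −0.012 with DESeq2 and −0.096 from peaks inside the gene. Lum within 10 kb was −0.37 with rosiglitazone and 1.05 for forskolin against rosiglitazone, and 0.53 there over every annotated gene. With Cenpp left out, which adds peaks to its sum, Omd was −0.37 after 4 hours and −0.35 against rosiglitazone. Over every annotated gene Prelp was 0.061 against rosiglitazone, and Epyc was 0.50 after 1 day and 0.30 after 3 days, and 0.62 and 0.26 from peaks inside it. Leaving out each library, values that crossed 0 ranged from −0.26 to 0.10 (Lum) and −0.25 to 0.30 (Omd) after 4 hours, from −0.29 to 0.13 after 3 days (Kera), from −0.022 to 0.029 (Fmod) and −0.13 to 0.080 (Prelp) with rosiglitazone, and from −0.15 to 0.023 (Lum) and −0.20 to 0.25 (Omd) for forskolin against rosiglitazone.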
